A study of Mus musculus with 5 samples.

Results

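The nuclear genes of the mitochondrial respiratory chain were examined in RNA polymerase II (Pol II) CUT&Tag libraries of splenic regulatory T (Treg) cells. Members were chosen by symbol among protein-coding genes of mm10, namely those beginning with Ndufa, Ndufb, Ndufc, Ndufs, Ndufv, Uqcr, Cox4, Cox5, Cox6, Cox7, Cox8 or Atp5, together with Sdha, Sdhb, Sdhc and Sdhd. This gave 94 of 21938 nuclear protein-coding genes. The value of a gene is the count summed over the peaks whose midpoint lay in its body or in the 3 kb upstream, and 86 members had such a peak, among 12947 genes with a peak in the whole series. In CUT&Tag an antibody directs a transposase to the DNA beside its target, and the tagged fragments mark where that target was bound.

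The study used C57BL/6 mice of 8 weeks, females and males pooled, that carried Cre under the control of Foxp3, the gene that defines Treg cells, as a Cre-YFP fusion. Control (Ctrl) mice carried Foxp3Cre with Setd2 flox/+, and knockout (KO) mice carried Foxp3Cre with Setd2 flox/flox, so Ctrl Treg cells also expressed Cre and had 1 floxed Setd2 allele. Setd2 is the methyltransferase that places the trimethyl mark on lysine 36 of histone H3 along transcribed genes. Mice of both genotypes received IL-2c, a complex of 1 µg IL-2 and 5 µg anti-IL-2 antibody given to expand the Treg pool, for 3 days and were killed 48 h later, and 80000 nuclei of sorted YFP+ Treg cells entered each library. There were 2 Ctrl and 2 KO libraries. By the methods of the study, cells of a pair of mice were pooled before sorting, and whether both libraries of a genotype came from separate pools is not clear, so p-values measure the spread between these libraries, which may leave out variation between mice. The IgG library was not analysed here.

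The respiratory chain passes electrons from NADH and succinate to oxygen. Complex I (NADH dehydrogenase) and complex II (succinate dehydrogenase) feed ubiquinone, complex III (cytochrome bc1) passes the electrons to cytochrome c, complex IV (cytochrome c oxidase) reduces oxygen, and the proton gradient that complexes I, III and IV build drives complex V (ATP synthase). Most subunits are encoded in the nucleus and are expressed in nearly every cell, and a few complex IV subunits have isoforms for heart, skeletal muscle, lung or testis. Treg cells are known for relying on oxidative phosphorylation more than other activated CD4+ T cells. Promoters of respiratory chain genes are textbook targets of NRF1, of the ETS factor GABPA, of YY1 and of SP1.

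Promoter windows of RefSeq (GRCm38.p6), which hold 250 bases before and 50 bases after a start, were found for 76 of the 94 members, 2 of them under a synonym, and gave 81 windows. Of these windows, 76 (93.8%) were overlapped by a Pol II peak, against 32.1% of all 32851 windows. The stretches below lie upstream of the transcribed bases, on the strand of the gene, and capitals mark exact matches on either strand to the letters searched, which were GCATGCGC for NRF1, CCGGAAG for ETS factors, AAGATGG for YY1 and GGGCGG for SP1. Matches that overlap run together. Ndufa6 and Ndufaf4 are shown because an NRF1 match lay just upstream of their start beside a peak, Cox7a1 and Cox7a2 as the muscle and the ubiquitous isoform of 1 subunit that both had a peak, Cox8a and Cox8b as an isoform pair of which only the ubiquitous one had a peak, and Cox6b1 as a ubiquitous subunit gene with no peak.
Ndufa6 (complex I accessory subunit, chr15:82354323-82354522, minus strand): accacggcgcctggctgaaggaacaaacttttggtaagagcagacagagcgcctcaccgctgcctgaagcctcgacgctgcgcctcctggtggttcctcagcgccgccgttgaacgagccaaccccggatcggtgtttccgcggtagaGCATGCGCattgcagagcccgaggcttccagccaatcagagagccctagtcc
Ndufaf4 (complex I assembly factor, chr4:24897883-24898082, plus strand): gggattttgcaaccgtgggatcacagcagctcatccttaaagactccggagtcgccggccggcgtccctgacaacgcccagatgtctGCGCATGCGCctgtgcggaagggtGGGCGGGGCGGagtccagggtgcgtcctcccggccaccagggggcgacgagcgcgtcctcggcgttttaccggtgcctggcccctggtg
Cox7a1 (complex IV, heart and muscle isoform, chr7:30183944-30184143, plus strand): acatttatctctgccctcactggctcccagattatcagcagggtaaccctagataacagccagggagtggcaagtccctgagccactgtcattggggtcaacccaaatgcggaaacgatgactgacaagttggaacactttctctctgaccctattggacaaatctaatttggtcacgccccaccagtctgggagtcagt
Cox7a2 (complex IV, ubiquitous isoform, chr9:79759879-79760078, minus strand): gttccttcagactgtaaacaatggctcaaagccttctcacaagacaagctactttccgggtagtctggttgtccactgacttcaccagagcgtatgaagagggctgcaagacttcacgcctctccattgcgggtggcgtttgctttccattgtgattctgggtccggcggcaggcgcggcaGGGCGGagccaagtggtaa
Cox8a (complex IV, ubiquitous isoform, chr19:7217617-7217816, minus strand): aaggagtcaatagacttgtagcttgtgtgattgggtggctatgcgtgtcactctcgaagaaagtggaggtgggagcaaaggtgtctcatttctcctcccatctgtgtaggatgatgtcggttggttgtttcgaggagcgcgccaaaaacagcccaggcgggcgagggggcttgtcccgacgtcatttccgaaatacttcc
Cox8b (complex IV, heart and muscle isoform, no peak, chr7:140900447-140900646, minus strand): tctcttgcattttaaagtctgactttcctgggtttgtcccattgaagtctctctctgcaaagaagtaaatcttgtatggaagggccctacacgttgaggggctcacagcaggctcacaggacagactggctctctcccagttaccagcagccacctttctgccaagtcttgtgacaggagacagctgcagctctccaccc
Cox6b1 (complex IV, ubiquitous isoform, no peak, chr7:30626152-30626351, minus strand): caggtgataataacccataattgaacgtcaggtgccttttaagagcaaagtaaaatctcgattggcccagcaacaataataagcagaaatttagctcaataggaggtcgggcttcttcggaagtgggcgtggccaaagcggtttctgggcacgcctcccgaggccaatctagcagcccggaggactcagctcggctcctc

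The stretch of Ndufa6 lay within a peak of chr15:82353316-82354782, and that of Ndufaf4 ran into a peak of chr4:24898072-24898320. The first base of the NRF1 match stood 83 bases before the RefSeq start in Ndufa6 and, on the plus strand, 111 bases before it in Ndufaf4. Cox7a1 held no match in its window, which overlapped a peak of chr7:30183956-30184592. The printed stretch of Cox7a2 held an SP1 match, and that of Cox8b held none of the 4 motifs. These letters are descriptions of the window and say nothing on whether a factor was bound.

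Over all 81 windows of the members, an NRF1 match was present in 12 (14.8%), against 2.71% of all windows and 5.88% of the 10561 windows overlapped by a peak. The members with the NRF1 letters were the complex I genes Ndufa6, Ndufa8, Ndufa11, Ndufaf4 and Ndufaf5, Sdhb of complex II, Uqcr11 and Uqcrc1 of complex III, Cox6a1 of complex IV, and Atp5g2, Atp5k and Atp5l of complex V. An ETS match was present in 22.2% of member windows, close to the 20.1% of peak-overlapped windows and above the 8.86% of all windows. YY1 letters were found in 14.8% of member windows, 7.75% of peak-overlapped windows and 6.34% of all windows. SP1 letters went the other way and were found in 44.4% of member windows but in 65.2% of peak-overlapped windows, with 35.7% over all windows. The shorter SP1 motif has the highest share in each set. The members' windows had a median GC content of 58.3% and a median ratio of observed to expected CpG of 0.829, against 61.3% and 0.787 in peak-overlapped windows and 52.7% and 0.384 in all windows. No test was made across windows, since members were picked as a family and some promoters overlap.

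**Figure D1:**
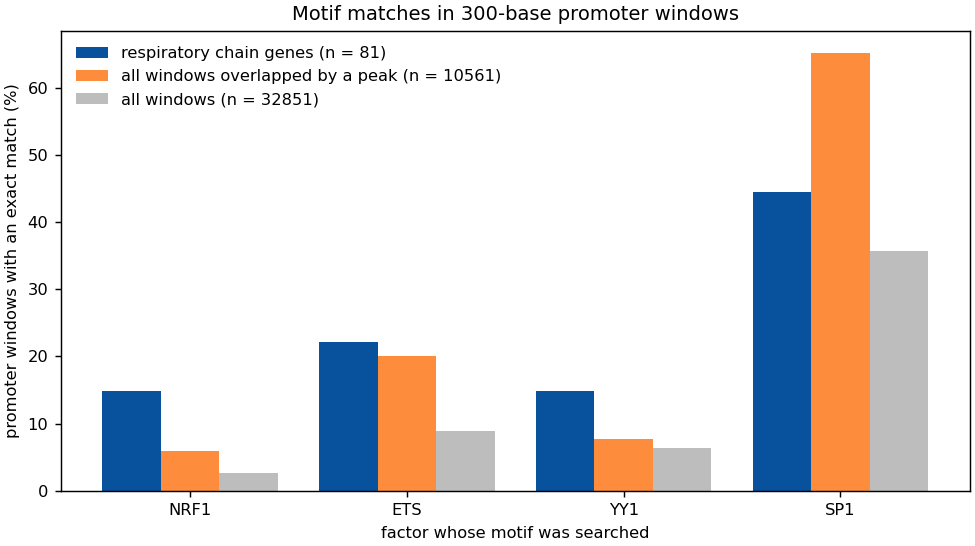
Share of promoter windows with an exact match to the letters of each factor, on either strand, for the respiratory chain genes (81 windows), all windows overlapped by a Pol II peak (10561) and all windows (32851). The bars of the members stand at 14.8% for NRF1 and 44.4% for SP1, above and below the bars of the peak-overlapped windows at 5.88% and 65.2%.

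The total count over all 56615 peaks ranged from 4489646 in KO 2 to 13351007 in KO 1, and the size factors by which counts were divided (median of ratios over all peaks) ranged from 0.587 to 1.68. Counts divided by these factors are called normalized counts. All 7 Treg and T cell markers, among them Foxp3, Il2ra and Cd3e, had peaks, and these summed to 26570 and 32234 normalized counts in Ctrl against 28018 and 32607 in KO. Of the B cell markers, Cd79a had a peak (81.3 and 88.4 in Ctrl, 67.7 and 121 in KO) and Ms4a1, Cd22 and Pax5 had none. Of the myeloid markers, Cd14 had a peak (70.4 and 117 in Ctrl, 41.6 and 86.9 in KO) and Lyz2, Itgam, Csf1r and Adgre1 had none; Cd8a, Cd8b1, Klrb1c and Ncr1 had none, and of the erythroid markers Klf1 and Epor had peaks, summing to 227 and 240 in Ctrl and to 221 and 254 in KO. The peaks of Setd2 itself held 525 and 513 normalized counts in Ctrl and 458 and 560 in KO (log2 fold change −0.036 ± 0.19 SE, DESeq2 adjusted p = 0.9995), but they do not single out the floxed exons and so do not check the deletion.

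Pol II peaks were found at 86 of the 94 members (91.5%), against 54.2% of all nuclear protein-coding genes. All 7 complex I core subunit genes had a peak, as did 30 of 31 complex I accessory subunit genes, all 8 genes named as complex I assembly factors (Ndufaf), all 4 complex II genes, all 8 complex III genes and all 18 complex V gene models. Complex IV was the exception, with 11 of 18. The 7 complex IV genes without a peak were Cox4i2, known from lung, Cox6a2 and Cox8b, known from heart and skeletal muscle, Cox7b2 and Cox8c, known from testis, and the ubiquitous Cox6b1 and Cox6c. The remaining gene without a peak was Ndufa9, a ubiquitous complex I accessory subunit. None of these 8 had a peak that reached into its body or the upstream 3 kb, and the nearest peak midpoint was 13.6 kb from the start of Cox4i2, 14.9 kb from Cox6b1, 29.6 kb from Cox6c, 90.4 kb from Ndufa9 and 612 kb from Cox7b2. The table lists counts over called peaks, so a gene without a peak is one where none was called, not one shown to lack Pol II.

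Pairs of isoforms divided in different ways. Cox4i1, Cox6a1, Cox7b and Cox8a, the ubiquitous forms, had peaks at 111, 143, 154 and 189 normalized counts per kb of peak in Ctrl (mean of 2 libraries), while Cox4i2, Cox6a2, Cox7b2, Cox8b and Cox8c had none. Cox6b went the other way, with no peak at the ubiquitous Cox6b1 and 1 short peak at the testis isoform Cox6b2, which was shared with Fam71e2 and held 25.2 and 26.2 normalized counts in Ctrl and 20.2 and 17.0 in KO. The single Cox7b peak was also short, at 225 bp, and held 38.8 and 30.3 normalized counts in Ctrl. Both the muscle isoform Cox7a1 (156 per kb) and the ubiquitous Cox7a2 (142 per kb) had peaks, as did Cox7a2l, a factor of supercomplex assembly (249 per kb). Cox5a and Cox5b, subunits of distinct sequence that share only a number, stood at 164 and 139 per kb. The hypoxia-associated Ndufa4l2 stood at 109 per kb and its paralog Ndufa4, now regarded as a complex IV subunit, at 252. Both are counted here, by their symbols, among the complex I accessory subunit genes and not in complex IV. Of the genes that encode the identical mature c subunit of ATP synthase, Atp5g1, Atp5g2 and Atp5g3 stood at 192, 223 and 121 per kb.

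Levels between genes are compared here only per kb of peak. This ranks density over the peaks and not the total count of a gene, and both orders can differ. The median member stood at 169 normalized counts per kb in Ctrl against 146 for all genes with a peak, and 59 of the 86 members lay above that all-gene median. Complex II was highest by its median (287 per kb, median percentile 92.9 of all genes), with the membrane anchor gene Sdhc at 475 (percentile 99.2), Sdhd at 302, the flavoprotein gene Sdha at 272 and the iron-sulfur subunit gene Sdhb at 147. The single Sdhc peak was only 235 bp long and was shared with another gene, and the single Sdhd and Sdha peaks were shared with Timm8b and Ccdc127. By mean total count in Ctrl the order was reversed at the ends. Sdhb was the highest of complex II (705 normalized counts over 4795 bp of peak) and Sdhc the lowest (112). The highest member of all was Uqcrq, a small subunit of complex III, at 481 per kb over 3 peaks shared with Gdf9, an oocyte gene that begins 192 bp away on the other strand. Complex III also held Uqcr11, among the lowest at 108 per kb.

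Within complex I, core subunit genes reached 263 per kb at Ndufs8, while accessory subunit genes ranged from Ndufa1 (109) to Ndufa11 (393), and assembly factor genes from Ndufaf5 (99.1, the lowest member) to Ndufaf4 (293). Ndufaf4 and Ndufa1 each rested on 1 short peak, of 249 and 317 bp. In complex IV the range was narrower, from Cox4i1 (111) to Cox7a2l (249). Cox4i1 nevertheless had the highest mean total count of complex IV in Ctrl, 613 normalized counts over 5522 bp of peak. In complex V it ran from Atp5o (104), which encodes the stalk subunit OSCP, to Atp5d (296), which encodes the delta subunit of ATP synthase. The level of Atp5d rests on 2 peaks, both shared with Cbarp, that do not cover its RefSeq start, though the upstream one covers its GENCODE start. The medians of the complexes apart from complex II lay between 154 (complex IV) and 179 (complex III), close to each other beside the spread within each.

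**Figure D2:**
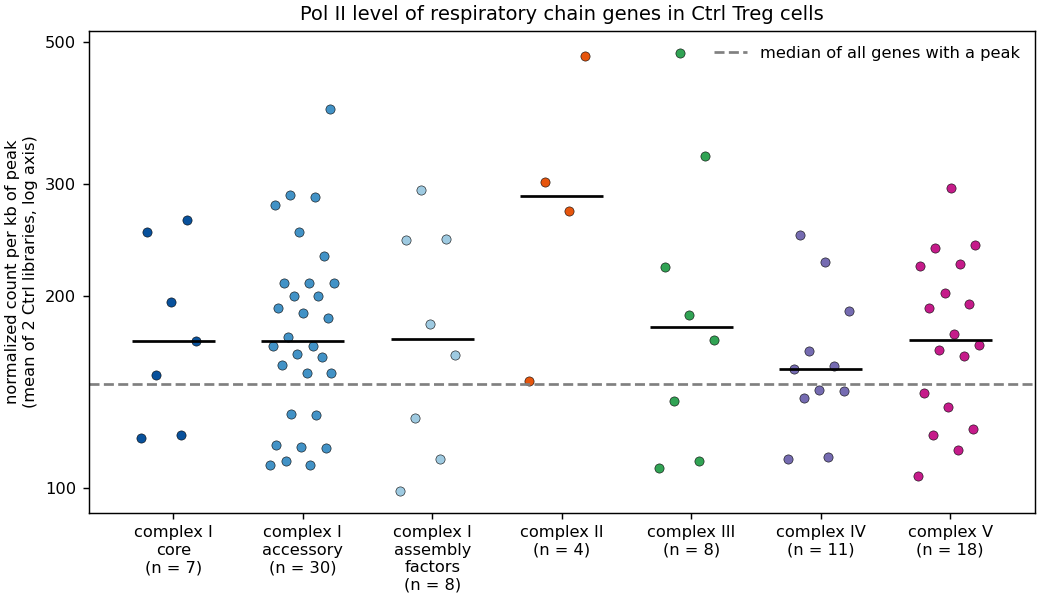
Normalized Pol II count per kb of peak in Ctrl Treg cells (mean of 2 libraries, log axis) for each respiratory chain gene with a peak, by complex, with horizontal bars at the medians and a dashed line at the all-gene median of 146. Complex II has the highest median (287, 4 genes), and Uqcrq and Sdhc stand highest at 481 and 475.

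The peaks of the members were concentrated at their starts. Of the 191 pairs of a member and a peak, 86.9% were promoter pairs, with the peak midpoint within 3 kb of a start of the gene, against 53.0% for all protein-coding genes with a peak. Within 0.5 kb on either side of a start lay 19.4% of the pairs upstream and 27.7% downstream, against 11.6% and 12.4% for all genes. Only 11 of the 86 members (12.8%) had a gene body peak, against 44.4% of all protein-coding genes with a peak. The members are short genes, with a median span of 7.33 kb beside 22.4 kb, and a short gene has fewer bases more than 3 kb from a start, so gene length moves with this difference and its part was not tested. A single peak was all that 38 members (44.2%) had, against 32.2%.

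Many member promoters are bidirectional. Another protein-coding gene began within 1 kb upstream on the opposite strand at 23 of the 86 members (26.7%), against 11.5% of all protein-coding genes with a peak. The pairs included Ndufa7 with the ribosomal protein gene Rps28 (10 bp between starts), Ndufb9 with Tatdn1 (18 bp), Sdha with Ccdc127 (29 bp), and Sdhd with Timm8b, an import chaperone of mitochondria (98 bp). At least 1 peak was shared with another protein-coding gene at 44 members (51.2%, against 36.7%), and at 32 of them every peak was shared. CUT&Tag reads carry no strand, so at these members the Pol II of the 2 genes cannot be told apart. Both peaks of Atp5j, a stalk subunit of ATP synthase, were shared with Gabpa, which is itself on the list of regulators.

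**Figure D3:**
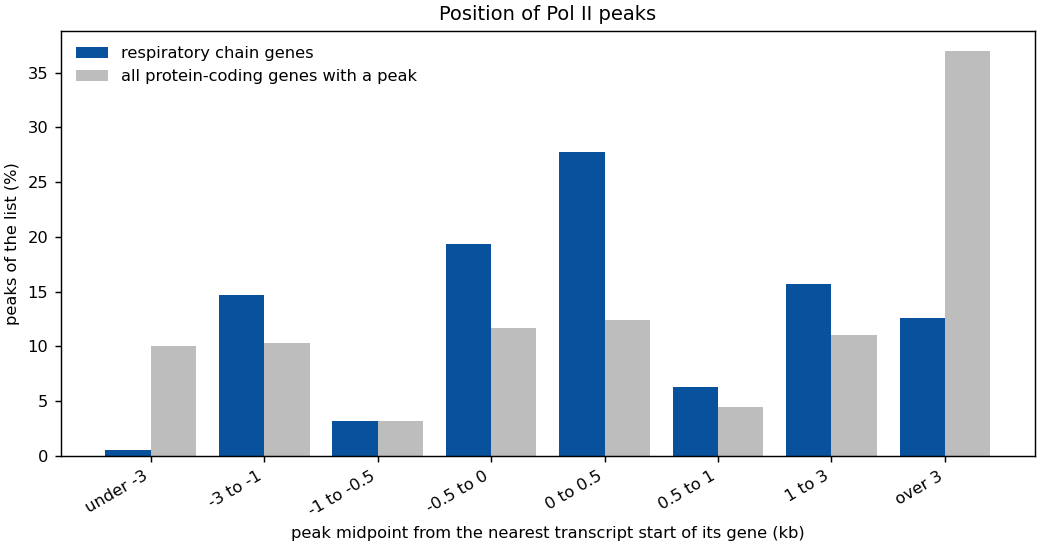
Position of peak midpoints relative to the nearest transcript start of their gene, in bins of unequal width in kb (negative: upstream), as a share of the gene and peak pairs of the respiratory chain genes (191) and of all protein-coding genes with a peak (50577). Peaks more than 3 kb past a start made up 12.6% of the member pairs and 36.9% of all pairs, and peaks more than 3 kb before one lie upstream of an alternative start inside the gene.

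KO was compared with Ctrl to ask whether loss of Setd2 was accompanied by a different Pol II level at these genes, relative to all peaks. Counts were scaled by the peak counts themselves, so a change common to all peaks would not be seen. No member passed an adjusted p of 0.05 in the DESeq2 Wald test over all 12947 genes (0 of 86, lowest adjusted p = 0.9995), where 13 genes (0.100%) did. At an unadjusted p under 0.05, 2 members were lower in KO and 0 were higher, while over all genes 1.51% were lower and 1.10% higher, so the members' share of 2.33% was near the background. With 2 libraries a group the SE of a member's log2 fold change was 0.140 to 0.667 (median 0.237), which sets how small a difference could have been seen. The log2 fold changes ran from −0.60 (Cox7a1) to 0.32 (Atp5e), with a median of −0.055 beside −0.022 over all genes, and 31 were above 0 and 55 below (36.0% above, against 45.5% of all genes). Under total-count scaling the median was −0.026 beside 0.0072 over all genes, with 43.0% of the members above 0 against 51.4% of all genes. Since bulk nuclei were measured, fewer cells of a kind and less Pol II per cell cannot be told apart.

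**Figure D4:**
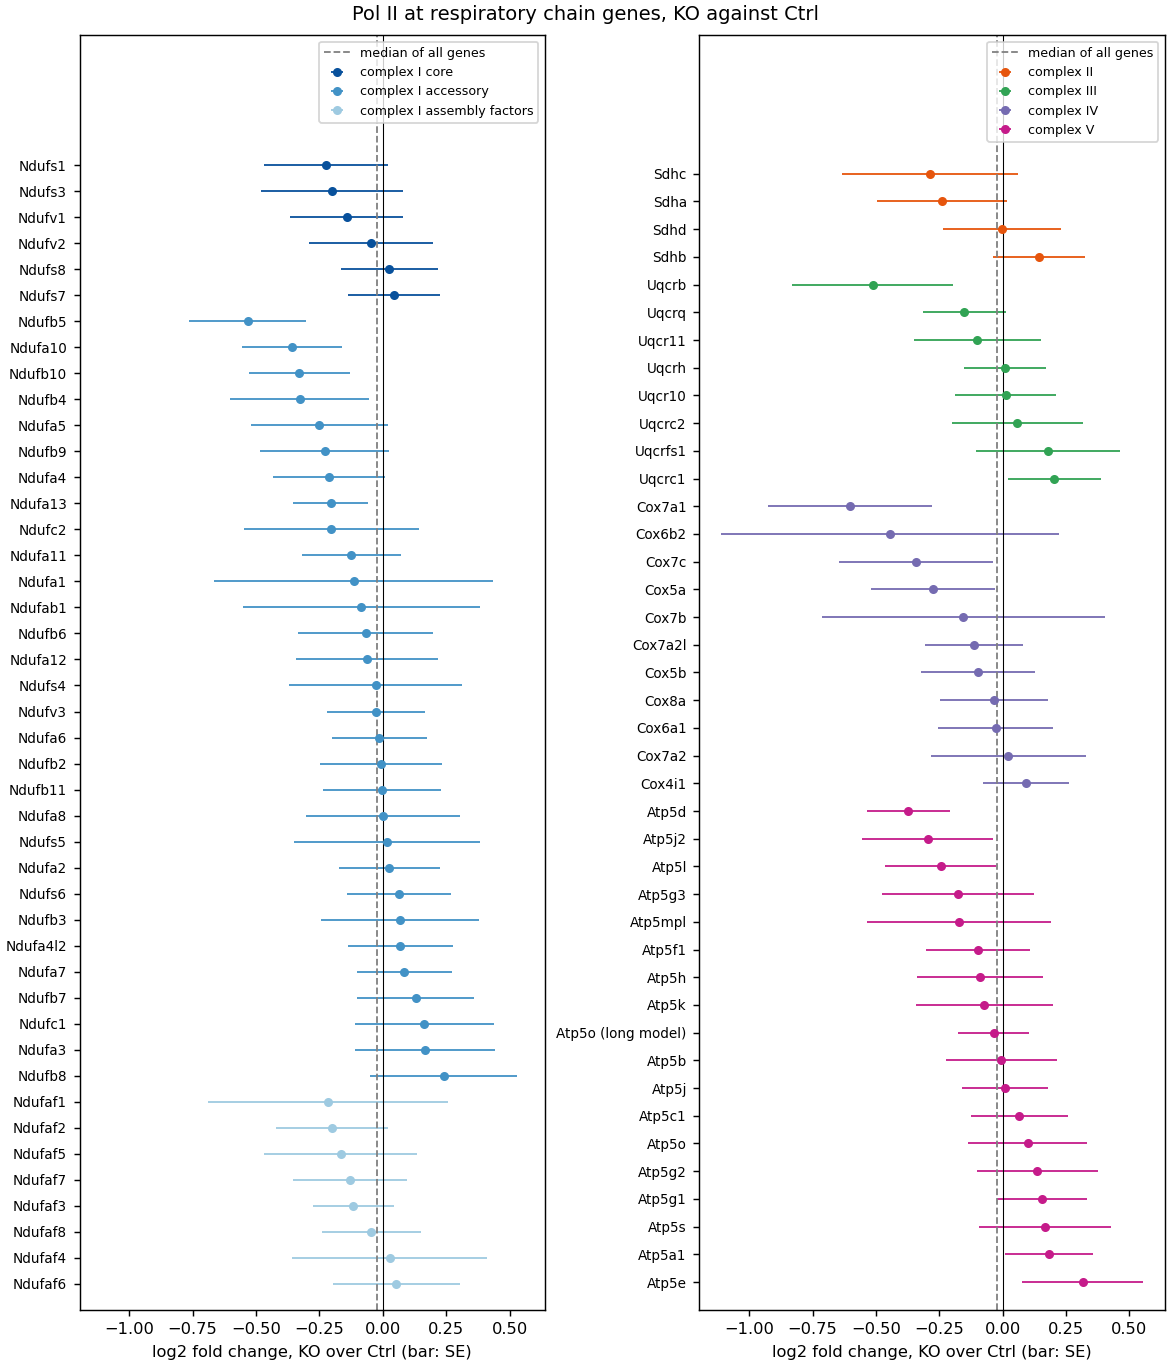
Log2 fold change of Pol II counts, KO over Ctrl, with SE (DESeq2, 2 against 2 libraries), for 85 of the 86 respiratory chain genes with a peak, complex I at left and complexes II to V at right. The dashed line marks the all-gene median of −0.022; values run from −0.60 to 0.32 and none passed an adjusted p of 0.05.

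At 21 members (24.4%, against 18.9% of all genes) the KO libraries were both below the 2 Ctrl libraries, and at 4 (4.65%, against 15.2%) they were both above. The 4 that lay above were Ndufb8, Cox4i1, Atp5a1 and Atp5g1, which are given because they are few and were picked after their values were seen. Both Ndufb8 peaks, all 5 Cox4i1 peaks and 2 of the 5 Atp5a1 peaks were shared with other protein-coding genes. No peak of Atp5g1 was shared. Both counts moved with the counting, since under total-count scaling the members were 18 below (20.9%, against 15.4%) and 8 above (9.30%, against 18.6%), and with peaks shared by no other protein-coding gene, which leaves 54 members, they were 7 below (13.0%, against 17.9%) and 1 above (1.85%, against 16.4%). The median log2 fold change by complex was −0.076 for the complex I core, −0.028 for its accessory subunits, −0.12 for its assembly factors, −0.12 for complex II, 0.010 for complex III, −0.11 for complex IV and −0.020 for complex V.

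The 2 members past an unadjusted p of 0.05 were Ndufb5 and Atp5d. Ndufb5, a complex I accessory subunit, had 288 and 350 normalized counts in Ctrl 1 and Ctrl 2 and 211 and 230 in KO 1 and KO 2. The groups did not overlap, and the log2 fold change was −0.53 ± 0.23 SE (DESeq2 adjusted p = 0.9995), with a 95% interval from −0.99 to −0.081. Its only peak (chr3:32736205-32737320) was shared with Mrpl47, which encodes a protein of the mitochondrial ribosome, so the count belongs to both genes. Leaving out any 1 of the 4 libraries put its unadjusted p over 0.05, with log2 fold changes from −0.66 without Ctrl 1 to −0.39 without Ctrl 2.

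Atp5d had 1001 and 993 normalized counts in Ctrl and 829 and 705 in KO, with no overlap between the groups, and a log2 fold change of −0.37 ± 0.16 SE (95% interval −0.69 to −0.051, DESeq2 adjusted p = 0.9995). Both of its peaks were shared with Cbarp. The peak upstream (chr10:80136678-80138961) held 725 and 703 in Ctrl, against 535 and 497 in KO. The other (chr10:80139229-80140317) held 277 and 291 in Ctrl and 294 and 208 in KO, so the groups were apart in the first peak and overlapped in the other. The RefSeq promoter windows of Atp5d (chr10:80142025-80142324 and chr10:80142065-80142364) lay in neither. They lay in a broad peak of 11.8 kb (chr10:80140727-80152552) whose midpoint falls past the end of Atp5d and which was therefore credited to Midn alone. That peak held 3360 and 3500 normalized counts in Ctrl and 3308 and 2980 in KO, with a log2 fold change of −0.12 ± 0.17 SE (DESeq2 adjusted p = 1.000). The GENCODE start of Atp5d (chr10:80138632), by which peaks were assigned, lies within the upstream peak shared with Cbarp. The lower value credited to Atp5d thus came from the shared Cbarp peaks and not from the peak over its RefSeq start. In all, 14 peaks reached into 12 members or their upstream 3 kb with the midpoint outside, and none of them passed an unadjusted p of 0.05 in the DESeq2 fit of peaks.

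The lowest values below these were spread over the complexes, and none passed the test. Cox7a1, the heart and muscle isoform shown above, had 120 and 164 normalized counts in Ctrl and 87.9 and 98.8 in KO, with a log2 fold change of −0.60 ± 0.32 SE (95% interval −1.24 to 0.031, DESeq2 adjusted p = 0.9995), and neither of its 2 peaks was shared. Without 1 library in turn its log2 fold change ran from −0.81 without Ctrl 1 to −0.37 without Ctrl 2. Its ubiquitous counterpart Cox7a2 had 134 and 114 in Ctrl and 116 and 140 in KO, where the groups overlapped, and a log2 fold change of 0.023 ± 0.31 SE. The difference between both isoforms was not tested. Ndufa10, an accessory subunit of complex I, had 420 and 452 in Ctrl and 334 and 347 in KO (log2 fold change −0.36 ± 0.20 SE), over 4 unshared promoter peaks. Uqcrb, which helps to bind ubiquinone in complex III, had 134 and 130 in Ctrl and 98.0 and 85.2 in KO (log2 fold change −0.51 ± 0.32 SE), on a peak shared with Gm10767. At Cox7a1, Ndufa10 and Uqcrb the libraries of the 2 genotypes did not overlap, as was so for 18.9% of all genes in this direction.

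In the other direction, Atp5e, the epsilon subunit of ATP synthase, had 224 and 271 normalized counts in Ctrl and 268 and 351 in KO (log2 fold change 0.32 ± 0.24 SE). Uqcrc1, a core subunit of complex III, had 525 and 592 in Ctrl and 588 and 703 in KO (log2 fold change 0.20 ± 0.18 SE). At both genes KO 1 lay between the Ctrl libraries, so the groups overlapped. When 1 library was left out in turn, the log2 fold change ranged from 0.13 to 0.51 at Atp5e and from 0.082 to 0.33 at Uqcrc1, lowest without KO 2 and highest without KO 1 at both genes.

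The members of lowest p in the remaining groups also overlapped between genotypes, apart from Sdha. Sdha had 193 and 244 normalized counts in Ctrl and 180 and 189 in KO (log2 fold change −0.24 ± 0.26 SE), and Sdhc had 99.2 and 124 in Ctrl and 104 and 74.9 in KO (log2 fold change −0.29 ± 0.35 SE). Ndufs1, the largest iron-sulfur subunit of complex I, had 380 and 288 in Ctrl and 330 and 238 in KO (−0.22 ± 0.24 SE), and its peaks were shared with Eef1b2. Ndufs3 had 152 and 182 in Ctrl and 135 and 157 in KO. In these core genes the library numbered 2 was low in both genotypes at Ndufs1 and high in both at Ndufs3. The assembly factor genes Ndufaf2 (367 and 321 in Ctrl, 331 and 264 in KO) and Ndufaf3 (1144 and 1026 in Ctrl, 1056 and 945 in KO) had log2 fold changes of −0.20 ± 0.22 and −0.12 ± 0.16 SE, and Cox7c, a small complex IV subunit, had 143 and 187 in Ctrl and 110 and 153 in KO (−0.34 ± 0.31 SE). These differences depended on single libraries. Leaving out 1 library in turn gave log2 fold changes from −0.49 without KO 1 to −0.0011 without Ctrl 1 at Ndufs1, and from −0.32 without Ctrl 1 to −0.071 without Ctrl 2 at Ndufs3. The values ran from −0.40 without Ctrl 1 to −0.070 without Ctrl 2 at Sdha, from −0.57 without KO 1 to −0.088 without KO 2 at Sdhc, and from −0.57 without KO 2 to −0.10 without KO 1 at Cox7c. Ndufaf2 ran from −0.39 without KO 1 to −0.051 without KO 2, and Ndufaf3 from −0.20 without KO 1 to −0.027 without Ctrl 1.

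**Figure D5:**
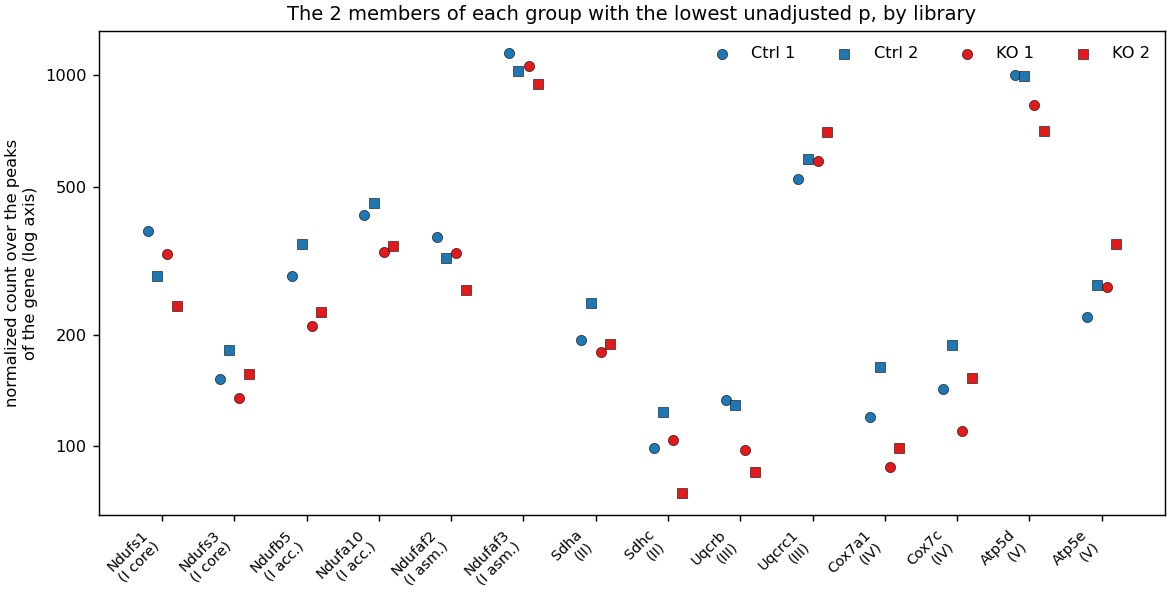
Normalized Pol II count per library (log axis) for the 2 genes of lowest unadjusted p in each complex or part of complex I (acc., accessory; asm., assembly factors), with Ctrl libraries in blue and KO libraries in red, circles for libraries numbered 1 and squares for those numbered 2. At Ndufb5, Ndufa10, Sdha, Uqcrb, Cox7a1 and Atp5d both KO points lie below both Ctrl points, and at the other 8 genes they overlap.

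Single peaks were tested as well. Of the 190 member peaks, from 222 to 5266 bp long, none passed an adjusted p of 0.05 in the DESeq2 fit over all 56615 peaks, where the share called was 0%. At an unadjusted p under 0.05, 4 of the 190 were lower in KO and 1 was higher. Of all 56615 peaks, 376 (0.664%) were lower and 488 (0.862%) higher. The share lower was thus larger among member peaks and the share higher smaller, on counts of only 4 and 1. The lower ones were the upstream Atp5d and Cbarp peak and the Ndufb5 and Mrpl47 peak described above, the Cox7a1 peak over its start (chr7:30183956-30184592), and a short Ndufa6 peak. The Cox7a1 peak held 93.4 and 130 normalized counts in Ctrl and 66.5 and 61.3 in KO (−0.78 ± 0.37 SE, DESeq2 adjusted p = 1.000). The Ndufa6 peak (chr15:82350606-82350888, 283 bp) held 71.9 and 56.5 in Ctrl and 36.8 and 25.5 in KO (−1.01 ± 0.48 SE, DESeq2 adjusted p = 1.000). It was a minor one, since the Ndufa6 peak over the promoter printed above held 369 and 329 in Ctrl and 368 and 375 in KO (0.085 ± 0.23 SE), and the gene as a whole had a log2 fold change of −0.013.

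The peak that was higher in KO (chr16:91696159-91696429) held 12.9 and 26.2 normalized counts in Ctrl and 36.2 and 51.1 in KO (1.18 ± 0.60 SE, DESeq2 adjusted p = 1.000). It belongs to a second gene model under the symbol Atp5o, which spans 243 kb across Itsn1, Cryzl1 and Donson, and it lies 231 kb from the start of that model, in Cryzl1. Of the 11 peaks of this model 10 were shared, so it is listed as a member by its symbol alone. The usual Atp5o gene had 226 and 251 in Ctrl and 235 and 278 in KO.

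The position of Pol II on these genes was also compared. Promoter peaks held 89.0% and 89.7% of the members' counts in Ctrl and 88.9% and 88.8% in KO, a difference of −0.484 percentage points (exact permutation test, two-sided, p = 0.333, the smallest that 2 against 2 libraries allow). All member peaks together took 0.363% and 0.378% of the counts of the Ctrl libraries and 0.356% and 0.370% of those of the KO libraries (exact permutation test, two-sided, p = 0.667), with overlap between the groups. Of the 25 gene body peaks, 14 were above and 11 below 0 in log2 fold change (median 0.036), and of the 165 promoter peaks 79 were above and 86 below (median −0.017), beside a median of −0.0094 over all peaks.

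The genes around the respiratory chain were treated the same way. Both cytochrome c genes (Cycs and Cyc1, the latter a complex III subunit whose symbol lies outside the rule), 38 of 40 further assembly factors, all 13 genes of the tricarboxylic acid cycle and 12 of 13 regulators of mitochondrial genes had a peak. None of these 65 genes passed an unadjusted p of 0.05 in either direction in the DESeq2 fit. Over all genes 1.51% did so lower and 1.10% higher, so a count of 0 among 65 is near that share. The lowest unadjusted p was at Surf1, an assembly factor of complex IV, which had 642 and 700 normalized counts in Ctrl and 775 and 884 in KO (0.30 ± 0.17 SE, DESeq2 adjusted p = 0.9995) and was singled out after its value was seen. Cyc1 had 309 and 314 in Ctrl and 377 and 402 in KO (0.32 ± 0.20 SE). Cycs went the other way, with 523 and 667 in Ctrl and 468 and 664 in KO (−0.078 ± 0.21 SE). Neither of these cytochrome c genes meets the rules for named genes given below. The median log2 fold change was −0.031 for the further assembly factors, −0.13 for the tricarboxylic acid cycle (10 of 13 below 0) and −0.063 for the regulators (9 of 12 below 0). Over all genes the median was −0.022, with 45.5% above 0.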

How the data were processed

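Pol II CUT&Tag was measured in 4 libraries, grouped by genotype from the labels. The deposited values are raw counts per merged peak; the authors mapped reads to mm10 with Bowtie2, kept uniquely mapped reads, removed duplicates, called peaks with MACS2 against IgG, merged them and counted reads with bedtools (versions not given in the sources used here). Reads that match a gene and a near-identical copy alike were thus lost. No column of counts lacked a sample (0 columns).

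Peaks were assigned with GENCODE vM21, to protein-coding genes first (47507 of 56615 peaks had a gene). Counts were summed per gene, and DESeq2 1.42.0 (R 4.3.3) was run on all genes and on all peaks with genotype as the term and size factors from all peaks (Wald test, two-sided, Benjamini-Hochberg). edgeR 4.0.16, total-count scaling, a mean of at least 10 counts, promoter or unshared peaks only, 1 kb upstream, a replicate block and leaving out each library were tried. The scripts were tested on simulated data. Shares were compared with an exact permutation test. Relative precision was lower in the shallower libraries numbered 2. Tables were made with Python 3.11.15 (pandas 2.3.3, numpy 2.4.6, scipy 1.17.1). Members and gene lists were chosen with earlier results of these data known. Named genes were those with an unadjusted p under 0.05, per complex the highest and lowest level and the 2 lowest p, and the isoform families. A few items that these rules would name are not reported here.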

Additional observations from a re-analysis of the deposited data

How the results depend on the processing

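No member was called at an adjusted p under 0.05, at gene or peak level, under any alternative run. At an unadjusted p under 0.05 the main count was 2 of 86 members (2.33%, against 2.61% of all genes). With edgeR it became 6, all lower in KO and 0 higher (6.98%, against 4.51% of all genes in both directions together). It was 3 with 1 kb upstream and 0 of 54 with unshared peaks only. The all-gene shares for the last 2 settings are not given here. After adjustment the edgeR count over all genes was 0, beside 13 with DESeq2. The count of member peaks was 5 of 190 in the main fit, 4 lower and 1 higher, beside 0.664% lower and 0.862% higher over all peaks. It became 8 with edgeR, for which the share over all peaks is not given here. The median log2 fold change of the members was −0.026 under total-count scaling, where the all-gene median moved from −0.022 to 0.0072, and −0.028 with unshared peaks only; it lay between −0.088 without KO 1 and −0.034 without Ctrl 1. The KO libraries were both below the Ctrl libraries at 7 of 54 members with unshared peaks only (13.0%, against 17.9% of all genes). They were both above at 8 of 86 under total-count scaling (9.30%, against 18.6%) and at 1 of 54 with unshared peaks only (1.85%, against 16.4%). These counts were added after the data were seen. For 38 named members, 250 of 251 values under alternatives that keep all libraries had the sign of the main value; the exception was Ndufa11, 0.35 with unshared peaks only. Leaving out 1 library turned 21 of 152 values, in 14 members, whose log2 fold changes then ran from the first to the second value: Atp5g3 −0.33 to 0.018, Cox7b −0.35 to 0.044, Ndufaf4 −0.15 to 0.22, Ndufs8 −0.050 to 0.10, Uqcr11 −0.23 to 0.063, Cox6a1 −0.12 to 0.055, Cox7a2 −0.093 to 0.16, Cox8a −0.10 to 0.028, Ndufa1 −0.22 to 0.0039, Ndufa11 −0.30 to 0.053, Ndufa4l2 −0.029 to 0.19, Atp5o −0.011 to 0.22, Cox5b −0.26 to 0.034 and Sdhb −0.047 to 0.33. The cause was not tested.

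Libraries with the same number were not said to be pairs. With a replicate block, 2 members passed an unadjusted p under 0.05, and the median log2 fold change of the members was −0.042. The share of all genes at that unadjusted threshold is not given here, so whether 2 is near background cannot be said. At an adjusted p under 0.05, 121 genes were called with the block, beside 13 without it. None of the 121 was a member, although 79 of the 86 members had no adjusted p in that fit. Deviations from the group means of same-numbered libraries correlated at 0.234 over all peaks, 0.370 over all genes and 0.217 over the members. The libraries numbered 2 were the shallower ones in both genotypes, so pairing and depth cannot be told apart here. With 2 libraries a group and SEs of 0.140 or more, small differences were not detectable at this depth.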
